A study of Mus musculus with 12 samples.

Results

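Epithelial-mesenchymal transition is the programme by which epithelial cells give up cell-cell junctions and take on the shape, matrix and motility of mesenchymal cells. Transcription factors of the Snail, Twist and ZEB families and the homeobox factor Prrx1 drive it, repressing junction genes such as Cdh1 (E-cadherin), while the intermediate filament vimentin, N-cadherin and fibronectin mark its end state. In mammary tissue the same genes are normally used by fibroblasts, vessels and, for Snai2, basal epithelium, so bulk RNA reads all of these cells at once.

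The genes described here are 10 members of this programme, chosen by name: Snai1, Snai2, Twist1, Twist2, Zeb1, Zeb2, Prrx1, Vim, Cdh2 and Fn1. They are 10 of the 16411 genes in the count table. RNA was sequenced from 6 mammary tumors and 6 benign mammary samples of female mice on an FVB background that carried the MMTV-Neu-NDL-YD5 transgene, an activated HER2 (Neu) driven by the MMTV promoter, which acts mainly in mammary epithelium. Both groups carried the transgene and received no treatment. Benign tissue had no visible tumor and was taken far from the excised tumors, so it came from transgenic animals and was not wild-type gland. The tumors and the benign samples in this comparison came from different mice, whose individual ages at collection are not given in the sources used here.

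Benign libraries held 5240853 to 8170687 counts in all, and tumor libraries 6111393 to 8588567. Erbb2, the gene of the transgene, was at 44.8 to 73.7 CPM (counts scaled to 1000000 per library) in benign tissue, and each tumor had more, from 1989 to 16634, so all libraries matched their labels. Some benign libraries stood apart. Benign samples 3, 4 and 6 held skeletal muscle RNA, with 2.64% to 6.53% of all counts in 7 muscle markers against at most 0.0372% in the others, and benign sample 1 had Ptprc, the pan-leukocyte marker CD45, at 398.5 CPM against 13.7 to 20.6 in the other benign samples. The counts of called genes below were therefore also taken without these libraries, and are given where a named gene lost its call.

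All 10 genes were lower in the tumors at an adjusted p under 0.1 in edgeR's quasi-likelihood test, where 34.8% of the 13191 genes tested were lower and 28.2% were higher. Their median log2 fold change (tumor minus benign) was -3.40, and that of all genes tested was -0.06. For 9 of the 10, each of the 6 tumors lay below each of the 6 benign samples, a pattern that 21.2% of all genes tested had. The sizes differed widely, from -4.69 for Twist1 to -0.82 for Fn1. In bulk RNA, fewer cells of a type and less RNA per cell cannot be told apart. With benign samples 3, 4 and 6 left out, all 10 were still lower, and without benign sample 1 the count was 9, with Fn1 no longer called.

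**Figure D1:**
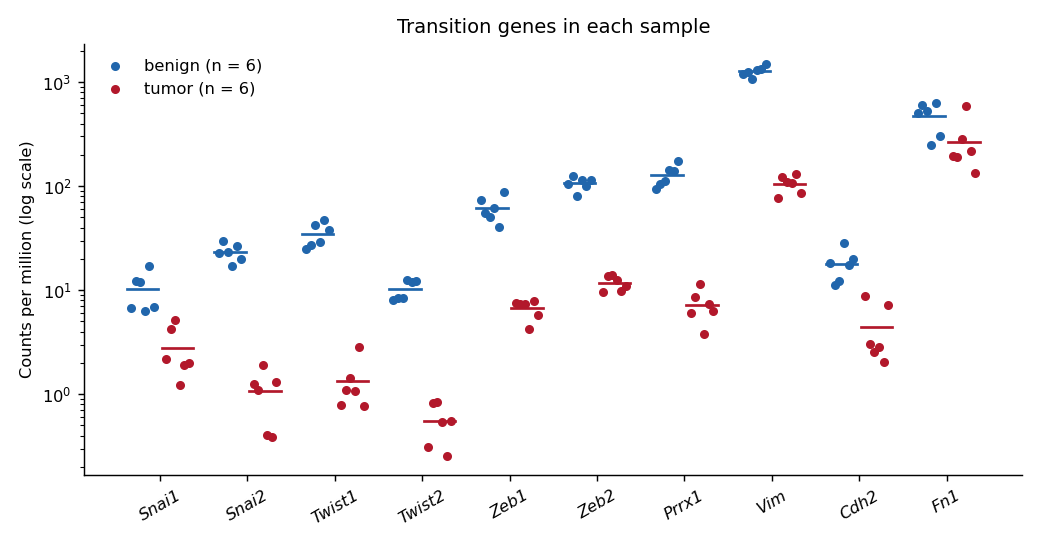
CPM (log axis) of the 10 transition genes in each of 6 benign and 6 tumor samples. Points are samples and lines are group means. The groups are apart for every gene except Fn1, where tumor 4 (584.7 CPM) and tumor 3 (283.2 CPM) lie above the lowest benign sample (246.9 CPM).

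Both Twist genes were low in tumors, and Twist2 was close to the detection limit there. Twist1 (chr12:33957671-33959829, + strand, GRCm38) encodes a basic helix-loop-helix factor of mesoderm and mesenchyme. Its level in benign tissue ran from 25.0 CPM through a median of 33.5 to 47.6, and in tumors from 0.768 through 1.09 to 2.81. The lowest benign sample was well above the highest tumor, which was tumor 5. The means were 34.9 ± 9.11 and 1.33 ± 0.768 CPM (SD, n = 6 each), a log2 fold change of -4.69 ± 0.33 (SE, edgeR adjusted p = 1.1e-07). Twist2 (chr1:91801461-91848028, + strand), its close relative, is active in dermal and stromal fibroblasts. Benign samples held 7.97 to 12.7 CPM of Twist2 (median 10.2), and tumors 0.256 to 0.843 (median 0.544). These tumor values stand for 2 to 7 counts per library, too few to order the tumors by, against 43 to 96 counts in benign tissue. The groups did not overlap. The log2 fold change was -4.16 ± 0.31 (edgeR adjusted p = 1.7e-07).

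The Snail genes fell by very different amounts. Snai2 (Slug, chr16:14705852-14709385, + strand), a zinc finger repressor also used by basal mammary cells, was at 17.1 to 29.9 CPM in benign tissue (median 23.1) and at 0.384 to 1.93 in tumors (median 1.17, 3 to 16 counts). Its groups lay far apart, with a log2 fold change of -4.42 ± 0.35 (edgeR adjusted p = 3.1e-07). Snai1 (Snail, chr2:167538195-167542814, + strand), the family member best known as a direct repressor of Cdh1, was at 6.24 to 17.0 CPM in benign tissue (median 9.40) and at 1.22 to 5.18 in tumors (median 2.08). Here the highest tumor, tumor 3, came near the lowest benign sample, benign 4, without reaching it. The log2 fold change of Snai1 was -1.86 ± 0.39 (edgeR adjusted p = 0.00121).

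Zeb1 and Zeb2, large zinc finger and homeodomain repressors that are held down in epithelia by miRNAs of the miR-200 family, had log2 fold changes of similar size. Zeb1 (chr18:5591860-5775467, + strand) was at 40.3 to 88.4 CPM in benign tissue (median 58.5) and at 4.19 to 7.80 in tumors (median 7.38), a log2 fold change of -3.20 ± 0.22 (edgeR adjusted p = 8.9e-08). Zeb2 (chr2:44983632-45117395, - strand) was at 80.6 to 124.5 CPM against 9.50 to 13.96, with medians of 109.3 and 11.7. Tumor 4 had the least Zeb1 but not the least Zeb2. The log2 fold change of Zeb2 was -3.18 ± 0.14, and its SE was the smallest of the 10 genes (edgeR adjusted p = 4.8e-09).

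Prrx1 (chr1:163245119-163313710, - strand), a paired-type homeobox factor of limb and connective tissue mesenchyme, was at 94.1 to 172.9 CPM in benign tissue (median 126.6) and at 3.78 to 11.6 in tumors (median 6.77). No tumor came near the benign range. Its log2 fold change was -4.13 ± 0.25 (edgeR adjusted p = 3.7e-08).

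Among the markers, Vim (chr2:13573927-13582826, + strand), the intermediate filament of mesenchymal, endothelial and blood cells, carried the most counts in benign tissue. Benign values ran from 1075 through 1284 to 1507 CPM, and tumor values from 77.7 through 108.1 to 129.8, so the spread within each group was small beside the distance between them. The log2 fold change of Vim was -3.61 ± 0.17 (edgeR adjusted p = 4.8e-09). Cdh2 (N-cadherin, chr18:16588877-16809246, - strand), a junction protein of mesenchymal and neural cells, was at 11.2 to 28.2 CPM in benign tissue (median 17.9). Its tumors were of mixed level, with tumors 1 and 6 at 8.72 and 7.24 CPM and the other 4 at 2.05 to 3.03. No tumor reached the benign range, and the log2 fold change was -2.02 ± 0.39 (edgeR adjusted p = 6.8e-04).

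Fn1 (fibronectin, chr1:71585520-71653200, - strand), a matrix glycoprotein made by fibroblasts and other cells, changed least. It was at 246.9 to 630.3 CPM in benign tissue (median 517.9), with benign 4 and 6 lowest. Tumors 1, 2, 3, 5 and 6 held 193.0, 191.4, 283.2, 216.5 and 133.6 CPM, and tumor 4 held 584.7. The groups therefore overlapped, through tumor 3 and tumor 4. The log2 fold change was -0.82 ± 0.35 with an edgeR adjusted p of 0.0634, which passes the threshold of 0.1 and not that of 0.05. Leaving out any of 9 single samples ended this call, with values of -0.62 to -0.78 and adjusted p of 0.102 to 0.158 (edgeR), whereas without tumor 4 the value was -1.15 with an adjusted p of 0.00445.

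Per kilobase of annotated exon, which allows levels to be set beside each other between genes, Vim led in benign tissue at 270.9 ± 30.5 CPM per kilobase (SD, n = 6), followed by Fn1 at 40.3 ± 13.7 and Twist1 at 21.4 ± 5.60. Prrx1 and Snai2 were level at 11.6 ± 2.66 and 11.5 ± 2.27, as were Snai1, Zeb1 and Zeb2 at 6.26 ± 2.64, 5.99 ± 1.67 and 5.35 ± 0.763. Twist2 at 3.24 ± 0.703 and Cdh2 at 2.22 ± 0.760 came last. In tumors Fn1 (22.9 ± 13.9) and Vim (22.2 ± 4.24) were level, Snai1 followed at 1.72 ± 0.961, and the next 6 lay between 0.526 and 0.817, each pair differing by less than the larger of its SDs. Twist2 was lowest at 0.175 ± 0.0778. Between Snai1 and Snai2, the higher mean was that of Snai2 in benign tissue and of Snai1 in tumors. These lengths are unions over all annotated isoforms, and so understate the level of genes with many.

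RNA of stromal markers moved with these genes. All 10 fibroblast markers were lower in tumors, where 34.8% of all genes tested were lower. Their log2 fold changes ran from -5.08 to -2.42, with a median of -3.34. Summed over the list, benign tissue had 5294 to 13304 CPM where tumors had 523.5 to 1223, and the most abundant, Col3a1 (a fibrillar collagen), went from 3381 ± 1620 to 285.3 ± 96.6 CPM (SD, n = 6 each). The 7 endothelial markers were all lower too, with a median of -3.39 and sums of 548.2 to 1076 against 78.6 to 95.8 CPM. Their most abundant gene was Cdh5 (VE-cadherin), at 283.6 ± 67.9 and 27.1 ± 2.64 CPM. No fibroblast or endothelial marker was at 3 counts or fewer in all tumors, so RNA of each was still detected there. Of the transition genes, 7 had a log2 fold change inside the range of the fibroblast markers. Snai1, Cdh2 and Fn1 fell by less than any of these markers. The endothelial median of -3.39 lay inside this range too, and the share of all genes tested inside it was not computed.

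Markers of other cell types also differed, beside 34.8% lower and 28.2% higher among all genes tested. Of 6 mural (pericyte and smooth muscle) markers, 5 were lower and Notch3, the most abundant over all 12 samples, was higher, at 172.7 ± 22.8 CPM in benign tissue and 232.8 ± 44.6 in tumors (log2 fold change 0.43, edgeR adjusted p = 0.0187). Without benign samples 3, 4 and 6 Notch3 was not called (0.32, edgeR adjusted p = 0.129). All 5 basal markers were lower, with a median of -3.42, led by the oxytocin receptor Oxtr at 106.0 ± 25.5 and 9.86 ± 8.53 CPM. All 5 adipocyte markers were lower, with a median of -8.59 and sums of 2962 to 5788 against 2.89 to 26.3 CPM. Plin1, which coats lipid droplets, was the most abundant of them. The leukocyte and macrophage list shifted far less, with 4 of 6 lower beside 34.8% of all genes tested, and a median of -0.65. Its most abundant gene was Lyz2, and its sums were 353.1 to 1296 against 214.1 to 487.8 CPM. Benign 1 carried much of this, since the other benign sums were at most 589.9 CPM. Without benign 1 only 2 of the 6, Cd68 and Lyz2, were lower, the median was -0.26 and Ptprc was at 0.15 (edgeR adjusted p = 0.581). By immunofluorescence, the study reported smaller stained areas in benign tissue than in tumors for each cell type stained. The stains included vimentin, the protein of Vim, whose RNA was lower in tumors (log2 fold change -3.61). The study described mesenchymal and epithelial cells as dominant in both tissues, and read this as no major shift among the main cell types. The stained area is a measure of tissue area and not of RNA share. The part of each cell type in the changes of the transition genes was not tested.

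**Figure D2:**
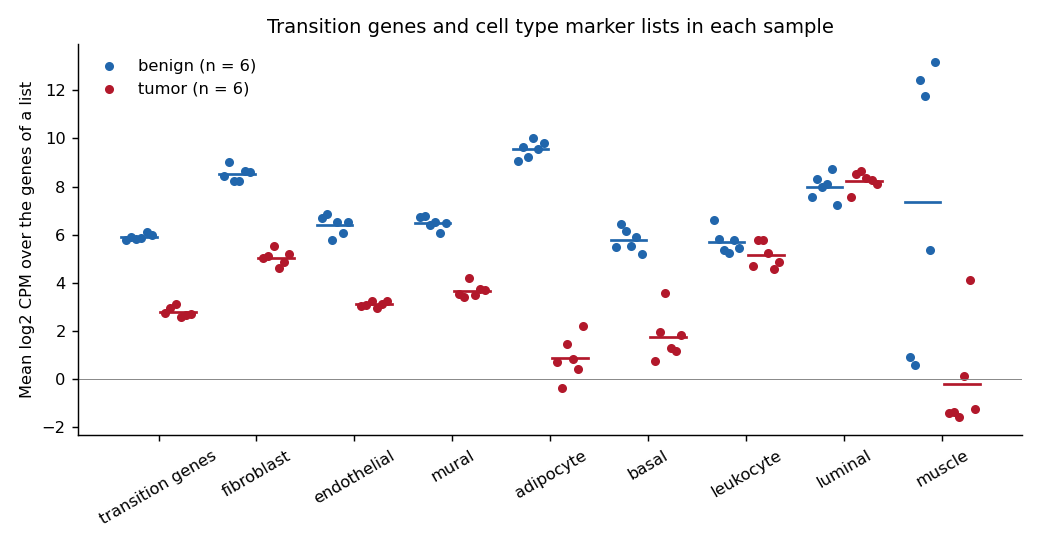
Mean log2 CPM (2 counts added) over the 10 transition genes and over each cell type marker list, for 6 benign and 6 tumor samples. Points are samples and lines group means. The transition genes fell from 5.79 to 6.10 in benign tissue to 2.56 to 3.13 in tumors. The fibroblast, endothelial, mural, adipocyte and basal lists also separated the groups, whereas the leukocyte, luminal and muscle lists overlapped.

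Because the fibroblast markers fell so far, each gene was also expressed per unit of fibroblast marker RNA, by replacing the library size with the mean log2 level of the 10 fibroblast markers in each sample. On this scale the typical gene rises, since the denominator falls: the median of all genes tested was 3.42, with 91.0% higher and 3.89% lower in tumors. Of the transition genes, 3 were higher, 4 lower and 3 not called, with a median of 0.07. The fibroblast markers, each of which is also part of the reference, scattered around it as well, with 4 of 10 higher, 4 lower, a median of 0.15 and values from -1.63 (Dpt) to 1.06 (Mfap5).

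Snai2, Twist1, Twist2 and Prrx1 were the 4 that fell further than the mean of the fibroblast markers, all of them within the range of the single markers. Their log2 fold changes relative to the markers were -1.04 (edgeR adjusted p = 0.00717), -1.23 (0.00844), -0.79 (0.0561) and -0.74 (0.0113). For Snai2 all tumors lay below all benign samples also on this scale, and for the other 3 the groups overlapped. The share of all genes separated in this way on this scale was not computed. With benign samples 3, 4 and 6 left out, Twist2 (-0.49, adjusted p = 0.357) and Prrx1 (-0.38, adjusted p = 0.259) were no longer called in edgeR. Twist2 also lost its call without benign 4, without tumor 1 or without tumor 5, with values from -0.69 to -0.64, and with collagens taken out of the reference (-0.62, edgeR adjusted p = 0.107).

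Zeb1, Zeb2 and Vim were not called on this scale, though without collagens in the reference Zeb1 (0.43, edgeR adjusted p = 0.0983) and Zeb2 (0.45, edgeR adjusted p = 0.0395) were higher. Their relative log2 fold changes were 0.25 (95% interval -0.33 to 0.83), 0.30 (-0.16 to 0.76) and -0.11 (-0.60 to 0.38), with edgeR adjusted p of 0.387, 0.192 and 0.658. These intervals still hold differences of up to 0.83 on the log2 scale. Per unit of fibroblast marker, Vim ran from 2.43 to 4.41 in benign samples and from 2.35 to 4.53 in tumors.

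Snai1, Cdh2 and Fn1 were higher relative to the fibroblast markers, by 1.54 (edgeR adjusted p = 7.1e-04), 1.39 (0.0058) and 2.81 (6.0e-06), above the value of each single marker. Against fibrillar collagens alone Cdh2 was not called (0.85, edgeR adjusted p = 0.128). For Snai1 and Fn1 all tumors lay above all benign samples, again with no share over all genes computed. Fn1 per unit of marker was 0.777 to 1.78 in benign tissue and 3.63 to 7.55 in tumors 1, 2, 3, 5 and 6, and tumor 4 stood at 24.1. This tumor also had the lowest fibroblast sum, 523.5 CPM. Without it the relative change of Fn1 was 2.19 (edgeR adjusted p = 1.2e-06). As 91.0% of all genes rise on this scale, a rise does not set a gene apart from the rest of the transcriptome.

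The choice of the reference cell type mattered. Relative to the endothelial list, 3 were again higher and 4 lower, with Vim at -0.34 (edgeR adjusted p = 0.149), where 90.2% of all genes were higher and 4.36% lower. Relative to the leukocyte and macrophage list, 9 of the 10 were lower and none higher, with Vim at -3.06 (edgeR adjusted p = 1.5e-06) and Fn1 not called at -0.25. On that scale 16.8% of all genes were lower and 39.9% higher. This reference includes Ptprc, which was high in benign 1.

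**Figure D3:**
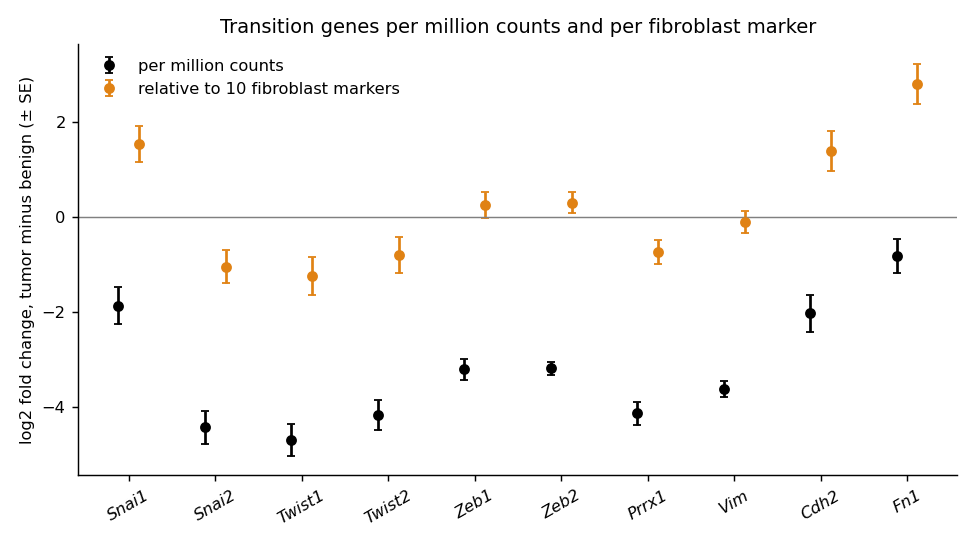
Log2 fold change (tumor minus benign, ± SE, n = 6 each) of the 10 transition genes on the CPM scale (black) and per unit of the 10 fibroblast markers (orange). All lie below 0 on the first scale, from -4.69 to -0.82. On the second, Snai1, Cdh2 and Fn1 are above 0 and Zeb1, Zeb2 and Vim are near it.

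Ratios of related genes within a sample depend on the scaling of libraries only through the 2 added counts, and 4 were compared. At low counts the added counts draw a ratio towards 0. The log2 ratio of Snai1 to Snai2 was -1.74 to -0.64 in benign tissue and 0.50 to 1.73 in tumors, so it was below 0 in each benign sample and above 0 in each tumor, on counts not divided by length. The means were -1.25 ± 0.40 and 1.18 ± 0.51 (SD, n = 6 each), a difference of 2.43 (exact permutation test, two-sided p = 0.00216, the smallest that regrouping these samples can give, and 0.00433 adjusted over 4 ratios). Without benign 3, 4 and 6 the difference was 2.40.

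The ratio of Zeb1 to Zeb2 differed by less than the spread within either group, at -0.82 ± 0.37 and -0.80 ± 0.44 (difference 0.02, exact permutation p = 0.909). That of Twist1 to Twist2 was 1.72 ± 0.38 in benign tissue and 0.90 ± 0.83 in tumors, a difference of -0.82 that did not pass (exact permutation p = 0.0649, adjusted 0.0866). Tumor 5 alone stood at 2.54 where the other tumors were at 0.32 to 0.84, and without it the difference was -1.15 with an adjusted exact permutation p of 0.00577. It rests on 2 counts of Twist2 in that tumor.

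Read in bulk RNA of mixed cells, the ratio of N-cadherin to E-cadherin went towards E-cadherin. The cadherin switch, by which the transition is often read, is a change within cells and was not tested here. The log2 ratio of Cdh2 to Cdh1 was -4.41 to -1.66 in benign tissue and -7.56 to -5.03 in tumors, a difference of -3.48 (exact permutation p = 0.00216, adjusted 0.00433). Each tumor lay below each benign sample. This separation and its p-value were fixed by the single genes and add no further evidence. Each tumor had less Cdh2 than each benign sample, and more Cdh1 (292.8 to 530.3 against 63.9 to 273.6 CPM). Tumors 1 and 6, with the most Cdh2, were closest to benign tissue at -5.03 and -5.74. Cdh1 itself rose from 177.1 ± 88.9 to 418.2 ± 103.5 CPM (log2 fold change 1.24, edgeR adjusted p = 0.00661).

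**Figure D4:**
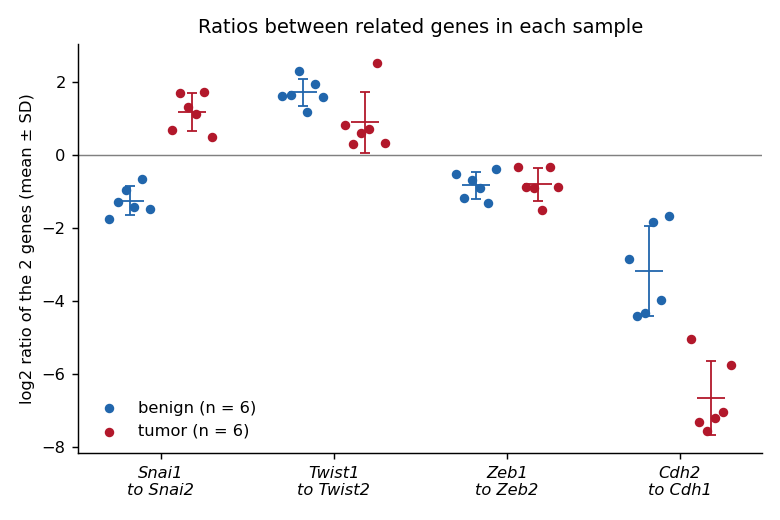
Log2 ratio of related genes within each sample, for 6 benign and 6 tumor samples. Points are samples, bars mean ± SD. Snai1 to Snai2 and Cdh2 to Cdh1 separate the groups without overlap, and Zeb1 to Zeb2 lies between -1.51 and -0.31 in all samples.

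The wider pathway was described by 4 further lists. Of 19 other mesenchymal genes, 15 were lower and 2 higher, with a median log2 fold change of -2.41 against -0.06 over all genes. Among all genes tested 34.8% were lower and 28.2% higher. The largest falls were in Acta2 (smooth muscle actin, -4.35), Sparc (a collagen-binding matrix protein, -3.72) and Tagln (transgelin, of smooth muscle, -3.53). The 2 that rose were the hyaluronan receptor Cd44 (1.60, from 41.1 ± 13.3 to 124.9 ± 38.3 CPM) and the integrin subunit Itgav (0.96), both of which epithelial cells also express. The matrix protein Tnc was not called, at -0.57.

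Of 16 other regulators, 12 passed the filter on low counts, 4 of which were higher and 7 lower, with a median of -0.96, beside 28.2% higher and 34.8% lower among all genes. Foxc1, a forkhead factor, rose from 21.0 ± 9.97 to 129.4 ± 25.5 CPM (2.62, edgeR adjusted p = 1.5e-05), and the helix-loop-helix inhibitor Id2 rose by 2.43 whereas its relative Id3 fell by 4.16 on the log2 scale. Sox9, a factor of progenitor cells, rose by 1.04. The homeobox gene Gsc fell from 2.98 ± 1.39 CPM to at most 1 count in any tumor. Snai3, Foxc2, Hmga2 and Lef1 did not pass the filter, and Hmga2 was at 3 counts or fewer in each benign sample.

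Of 16 signalling genes linked to the transition, 3 were higher and 8 lower, with a median of -0.33. Over all genes tested the shares were 28.2% higher and 34.8% lower, and the list of 16 was not tested against them. Without benign samples 3, 4 and 6 the counts were 2 and 6, and Notch1 was not called (0.67, edgeR adjusted p = 0.218). Tgfb3, a TGF-beta ligand, rose from 105.6 ± 33.3 to 364.7 ± 74.3 CPM (1.79, edgeR adjusted p = 1.0e-05), and the signal transducer Smad3 (0.99) and the receptor Notch1 (0.92) rose too. The Notch ligand Jag1 (-2.63), the growth factor Hgf (-2.52) and the receptor Pdgfra (-2.45), which is also among the fibroblast markers, fell. Tgfb1 and Tgfb2 were not called, at -0.10 and 0.50.

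**Figure D5:**
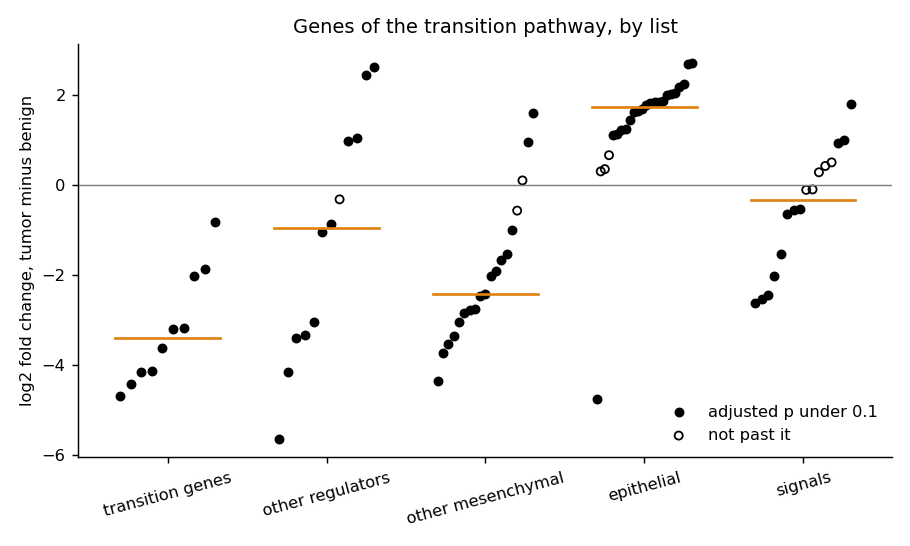
Log2 fold change (tumor minus benign) of each tested gene in the 5 lists. Filled points passed an adjusted p of 0.1, open points did not, and orange lines are medians. The transition genes have a median of -3.40 and the epithelial list 1.73, with Krt19 at -4.74 its only fall.

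Epithelial genes went the other way. Of 25 genes of junctions, keratins and epithelial regulators, 24 passed the filter. Of these, 20 were higher, 1 was lower and 3 were not called, with a median of 1.73. Among all genes tested 28.2% were higher and 34.8% lower. The largest rises were in Marveld3, a tight junction protein (14.9 ± 5.02 to 98.1 ± 6.46 CPM, 2.71), the desmosome protein Dsp (2.68) and the adhesion protein Epcam (255.3 ± 95.9 to 1206 ± 152 CPM, 2.24). The only fall was in Krt19, a luminal keratin, from 355.9 ± 148.6 to 13.3 ± 10.5 CPM (-4.74, edgeR adjusted p = 4.5e-06).

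Snail and ZEB proteins bind the E-box letters CAGGTG, which read CACCTG on the other strand, in the promoters of epithelial genes. These letters were searched for on both strands in RefSeq promoter windows of GRCm38.p6, each reaching 250 bases before and 50 after a gene's start. They occurred in 20.2% of the 32851 windows and in 21.4% of the 10480 tested genes with a window. Of the 15 epithelial genes with a window, 13 held them, not all of which rose. Among the 13, Elf3 and Cldn4 were not called and Grhl3 was not tested. Of the other lists, 1 of 6 transition genes (Snai1), 1 of 11 mesenchymal genes (Sparc), 1 of 10 regulators (Lef1) and 0 of 9 signalling genes did. So did 1 of 5 fibroblast markers (Dpt). Grhl1 and Ovol2 were the 2 epithelial genes without. A match is a description of letters and was not tested as a binding site, and genes with several starts have more chances to hold one. No window was matched for Snai2, Zeb1, Cdh2 and Fn1. The same held for Cdh1 and other genes of the epithelial list, of whose 25 genes 15 had a window.

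The 250 bases before the start are shown, with E-box letters in capitals, for the single transition gene that held them and for 3 of the epithelial genes that rose and held at least 2. They are Snai1 (chr2:167537945-167538194, + strand), Epcam (chr17:87635729-87635978, + strand), Rab25, a small GTPase of apical recycling (chr3:88548280-88548529, - strand, log2 fold change 2.18), and Crb3, an apical polarity protein (chr17:57061951-57062200, + strand, log2 fold change 1.81). Each is written 5′ to 3′ along its gene.
Snai1: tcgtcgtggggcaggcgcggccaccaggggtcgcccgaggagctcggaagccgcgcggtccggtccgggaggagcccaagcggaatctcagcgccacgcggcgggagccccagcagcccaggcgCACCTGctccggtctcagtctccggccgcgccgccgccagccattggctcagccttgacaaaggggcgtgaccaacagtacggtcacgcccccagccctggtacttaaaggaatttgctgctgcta
Epcam: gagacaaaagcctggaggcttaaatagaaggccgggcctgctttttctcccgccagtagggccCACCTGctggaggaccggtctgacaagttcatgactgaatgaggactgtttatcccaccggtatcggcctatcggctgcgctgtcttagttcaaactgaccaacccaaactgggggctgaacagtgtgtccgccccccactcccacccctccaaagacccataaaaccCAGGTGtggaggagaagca
Rab25: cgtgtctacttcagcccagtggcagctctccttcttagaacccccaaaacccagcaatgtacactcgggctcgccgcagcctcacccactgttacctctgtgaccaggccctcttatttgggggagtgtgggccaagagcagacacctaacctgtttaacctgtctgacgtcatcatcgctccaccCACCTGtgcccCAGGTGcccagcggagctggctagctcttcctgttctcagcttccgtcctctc
Crb3: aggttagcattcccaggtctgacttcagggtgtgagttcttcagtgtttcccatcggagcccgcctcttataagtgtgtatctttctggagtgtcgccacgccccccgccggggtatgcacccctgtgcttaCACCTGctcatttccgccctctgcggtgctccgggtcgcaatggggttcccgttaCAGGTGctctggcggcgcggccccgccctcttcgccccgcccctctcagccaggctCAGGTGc
The Snai1 window held 1 E-box, those of Epcam and Rab25 held 2 each, and the Crb3 stretch held 3 with another just after the start. Ocln and Cldn7 also rose (log2 fold changes 1.64 and 1.14) and held 2 in a window, but are not shown.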

How the data were processed

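Total RNA from frozen tissue was enriched for poly A, made into libraries with a directional kit and sequenced as paired reads. Per the submitters' processing notes, reads were trimmed with Trim Galore, quantified with Salmon and tested with DESeq2 against mm10, with versions and annotation release not given in the sources used here. The authors deposited 1 table of whole-number counts per gene for 16411 genes and 12 samples, in which each gene has at least 5 counts in all. Samples were grouped by their labels. Nothing from the deposited columns was left out.

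Counts were tested with edgeR 4.0.16 (quasi-likelihood, TMM scaling, filterByExpr with a minimum count of 10, 13191 genes) under R 4.3.3. Tests were two-sided, p-values were adjusted over all genes by Benjamini-Hochberg, and calls were made under 0.1. DESeq2 1.42.0, other scalings and filters, omitted samples and a replicate block were alternatives. The list counts without benign samples 1 or 3, 4 and 6 were added after the data were seen. CPM use TMM library sizes, and log2 CPM had 2 counts added. A second edgeR fit replaced library size by the fibroblast index. Ratios between genes were tested by exact permutation and called at an adjusted p under 0.05. The scripts were tested on simulated counts with known changes. Each group has 6 samples, described as biological replicates, and the sources used here do not say that each came from a separate mouse, so p-values measure the spread between these samples. The totals of 5240853 to 8588567 counts put a floor of 3 counts at 0.349 to 0.572 CPM. Floors cover counting error only.

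Samples with the same number in the 2 groups came from different mice, and their deviations from the group means correlated at -0.124 to 0.103, so the numbers were not taken as pairs. The members and the gene lists were chosen with earlier results of these data known, so no list serves as independent support. All 10 transition genes are named, with the 3 largest called changes in each direction from each pathway list (mean of at least 1 CPM in the higher group) and the most abundant gene of each marker list. Other list genes given by name (Cdh1, Tnc, Snai3, Foxc2, Lef1, Tgfb1, Tgfb2, Cd68, Dpt, Mfap5, Rab25, Crb3, Ocln, Cldn7, Ptprc, Elf3, Cldn4, Grhl3) were chosen after their values were seen, as were the promoter lists. Some results that these rules name are not reported here. Positions and exon lengths are from GENCODE M21 (GRCm38, the same assembly as mm10). At most 2.92% of a transition gene's 31-base words occur in transcripts of another gene. Of them, 6 overlap other annotated genes, and whether counting used strand is not given in the sources used here, so reads of antisense partners such as Zeb2os may be included.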

Additional observations from a re-analysis of the deposited data

Results flagged for a closer look

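In 42 groups of 6 samples, 5 held a sample far from the others by Dixon's test at the 95% level (the gap to the nearest sample over the range of the group), where chance gives about 1 in 20. Tumor 4 had Fn1 at 584.7 CPM against 133.6 to 283.2 in the other tumors. The same tumor had the lowest endothelial marker sum, 78.6 CPM against 92.3 to 95.8. Tumor 5 had Twist1 at 2.81 CPM against 0.768 to 1.44, which stands for 22 counts, and its log2 ratio of Twist1 to Twist2 was 2.54 against 0.32 to 0.84. Benign sample 1 had a leukocyte and macrophage marker sum of 1296 CPM against 353.1 to 589.9, of which Ptprc made up 398.5 CPM.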

How the results depend on the processing

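All 10 genes stayed lower in tumors under every alternative that could test them: DESeq2, upper-quartile scaling, total counts, looser and stricter filters, the replicate block and each omitted sample. The number called was 10, and 9 to 10 with single samples omitted and 9 at an adjusted p under 0.05, Fn1 being the gene lost each time. With at least 10 counts required in every sample it was 6 of 6, since Snai1, Snai2, Twist1 and Twist2 were no longer tested. The replicate block gave 10 lower, and relative to fibroblast markers 3 lower (Twist2 lost) and 3 higher. On that relative scale 4 were lower (3 to 4 with single samples omitted, 2 without benign samples 3, 4 and 6, 3 without collagens in the list, 9 with the leukocyte and macrophage list as reference) and 3 higher (3 with each omission, 5 without collagens in the list, where Zeb1 and Zeb2 joined, 2 with fibrillar collagens alone, where Cdh2 was lost, 0 with the leukocyte list). Signs turned for Zeb1 (-0.29) and Zeb2 (-0.16) against fibrillar collagens alone, for Vim without collagens (0.04) and without benign samples 3, 4 and 6 (0.08), and against the leukocyte list for Snai1 (-1.46), Zeb1 (-2.62), Zeb2 (-2.68), Cdh2 (-1.39) and Fn1 (-0.25). With single samples omitted, the ratios ranged from 2.32 to 2.57 (Snai1 to Snai2), -1.15 to -0.71 (Twist1 to Twist2), -0.08 to 0.17 (Zeb1 to Zeb2) and -3.80 to -3.18 (Cdh2 to Cdh1). Twist1 to Twist2 passed only without tumor 5 (-1.15). With 0.5 added counts no ratio changed its call. Of the list counts, without benign samples 3, 4 and 6 the mural list had 0 higher and the muscle list 1 lower, and without benign 1 the leukocyte list had 2 lower and the muscle list 7 of 7 lower, as more of it passed the filter. Why these values moved was not tested. Depth limits Twist2 and Snai2 in tumors, at 2 to 7 and 3 to 16 counts.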

Other observations

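The luminal list rose for Krt8, Krt18, Epcam and Cdh1 and fell for Krt19, with a median log2 fold change of 1.24. Among all genes tested 28.2% were higher and 34.8% lower. Epcam was the most abundant of the luminal list over all 12 samples, and Krt19 in benign tissue alone. The Schwann cell list was mixed, with 1 of 4 higher and 2 lower, beside the same shares of all genes. Sox10, its most abundant gene and also a factor of mammary epithelial progenitors, rose from 131.9 ± 69.3 to 1039 ± 106 CPM (SD, n = 6 each, log2 fold change 2.98, edgeR adjusted p = 1.4e-05). Of 7 skeletal muscle markers, 4 passed the filter and all 4 were lower, with Acta1 the most abundant, and the 7 together summed to 31392 to 81821 CPM in benign samples 3, 4 and 6 and at most 356.6 CPM elsewhere.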
